A study of Mus musculus with 2 samples.

Results

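The Mdm2-p53 feedback loop and the p53 gene family were examined as sets of p53 ChIP peaks at 7 loci of the mouse genome (build mm9): Mdm2, Mdm4, Trp53, Ccng1, Ppm1d, Trp63 and Trp73. A peak belonged to a locus if its midpoint lay in a fixed window around the gene. The windows were set by gene position and not by peak values, and together they span 760 kb on 5 chromosomes. They held 81 of the 92924 peaks of the list. The list was called from 1 p53 ChIP library (antibody M-19) against 1 input library made without antibody. Both came from mouse embryonic stem cells of a C57BL/6X129Sv mix below passage 20, grown with serum and leukemia inhibitory factor and exposed to Nutlin for 8 hours. The Nutlin dose is given as 20, in µM in one place and in mM in another, so its unit is not settled. There was no untreated library and no replicate, so nothing below measures a response to Nutlin, no value has an error between cultures, and intervals cover the counting error of peaks only. The read depth is unknown, and the identity of the cells could not be checked against marker genes from a peak list.

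The p53 protein activates transcription from a response element built from a pair of palindromic decamers, at genes of cell cycle arrest, repair and cell death. Among its targets is Mdm2, whose product is a ubiquitin ligase that marks p53 for destruction, so p53 raises its own inhibitor. Nutlin occupies the pocket of Mdm2 that holds p53 and interrupts this loop. Mdm4 is a relative of Mdm2 that masks the activation domain of p53, cyclin G1 (Ccng1) and the phosphatase Wip1 (Ppm1d) are p53 targets that feed back to lower p53 activity, and p63 (Trp63) and p73 (Trp73) are paralogs of p53 that recognise the same kind of element.

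Promoter sequences were available for 6 of the 7 genes, as 8 annotated starts in RefSeq on build GRCm38.p6. The 250 bases before each start were searched for the p53 decamer consensus, which is its own reverse complement, so that each match counts for both strands. An exact decamer match was present in 4 of the 8 promoters (Mdm2, Trp53, Ccng1 and Ppm1d), and 7.13% of 32851 mouse promoters in the table hold such a match. A full element, meaning adjacent decamers with the C and G of each core intact and at most 3 mismatches in 20 bases, was present in 3 of the 8 (Trp53, Ccng1 and the internal start of Trp73), against 1.14% of all promoters. Either match was present in 5 of the 8 promoters, against 7.87% of all promoters. These 5 are shown 5′ to 3′ because they hold a match to the element or to a single decamer of it. Exact decamers and whole full elements are in capitals, with any mismatched bases of an element included. The last base lies directly before the annotated start.

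Mdm2: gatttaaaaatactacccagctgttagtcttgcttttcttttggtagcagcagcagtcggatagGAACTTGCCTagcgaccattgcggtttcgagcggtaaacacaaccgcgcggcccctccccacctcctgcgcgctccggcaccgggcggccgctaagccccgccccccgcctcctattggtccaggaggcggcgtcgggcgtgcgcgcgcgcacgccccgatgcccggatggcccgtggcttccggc
Trp53: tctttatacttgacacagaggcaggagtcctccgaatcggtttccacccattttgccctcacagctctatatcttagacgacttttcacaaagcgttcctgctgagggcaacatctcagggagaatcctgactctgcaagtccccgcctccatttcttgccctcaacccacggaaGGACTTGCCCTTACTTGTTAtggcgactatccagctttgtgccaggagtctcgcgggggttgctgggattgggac
Ccng1: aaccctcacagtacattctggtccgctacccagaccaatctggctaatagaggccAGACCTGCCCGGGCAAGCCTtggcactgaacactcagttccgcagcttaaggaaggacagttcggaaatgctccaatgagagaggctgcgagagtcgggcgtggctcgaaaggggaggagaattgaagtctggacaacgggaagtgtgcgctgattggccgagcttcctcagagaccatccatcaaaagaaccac
Ppm1d: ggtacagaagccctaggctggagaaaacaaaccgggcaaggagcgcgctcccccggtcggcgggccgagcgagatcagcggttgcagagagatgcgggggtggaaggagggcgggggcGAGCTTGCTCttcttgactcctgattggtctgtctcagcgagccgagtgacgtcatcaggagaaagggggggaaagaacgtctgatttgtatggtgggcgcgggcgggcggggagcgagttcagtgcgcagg
Trp73, internal start: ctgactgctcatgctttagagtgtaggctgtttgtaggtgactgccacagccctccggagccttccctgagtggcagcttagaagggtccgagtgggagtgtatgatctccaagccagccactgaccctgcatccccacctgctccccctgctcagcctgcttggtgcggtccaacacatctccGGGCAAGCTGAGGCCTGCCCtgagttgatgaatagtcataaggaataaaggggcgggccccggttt

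The Ccng1 promoter held the closest match, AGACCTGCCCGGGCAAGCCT, with 1 mismatch in 20 bases, and its second decamer is the exact one. The internal Trp73 promoter held GGGCAAGCTGAGGCCTGCCC with 2 mismatches, and neither of its decamers was exact. In Trp53 the exact decamer GGACTTGCCC was followed by a poorer one, with 3 mismatches in all. Mdm2 (GAACTTGCCT) and Ppm1d (GAGCTTGCTC) had an exact decamer without an adjacent partner. By these rules, which allow no spacer, no match was present in either Mdm4 promoter or at the outer start of Trp73. These matches describe letters in a short window. The promoters are on another build than the peaks, so whether a peak covers any of them was not analysed here, and a known element outside the window, such as those of the first Mdm2 intron, would not be seen.

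p53 peaks of high score, 1000 or more, were set against the list as a share of peaks and not as a count of loci. The share of other same-length stretches with such a peak is given here only for Trp63 (37.9%). A count of loci would therefore have no full background beside it. The score is the peak caller's value for the ChIP library against input. It starts at 50, and 1390 peaks of the list share a score of exactly 3100, among which no order can be given. This value may be a placeholder for p-values below what the caller could store, which no source used here settles. If it does, these peaks rank above the 116 peaks scored higher than 3100, not below them. Scores of 1000 or more belonged to 8 of the 81 peaks (9.88%, exact Clopper-Pearson 95% interval 4.36% to 18.5%), against 5.77% of the whole list and 5.74% of the rest of the same chromosomes. The interval holds both background shares. Of the 8 peaks, 2 were at Mdm2, 2 at Ccng1, 2 at Trp73, 1 at Mdm4 and 1 at Trp53, and 6 had a score of exactly 3100 (7.41% of the 81 peaks, against 1.5% of the list). Scores of 100 or more belonged to 42 of the 81 peaks (51.9%), against 43% of the list.

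**Figure D1:**
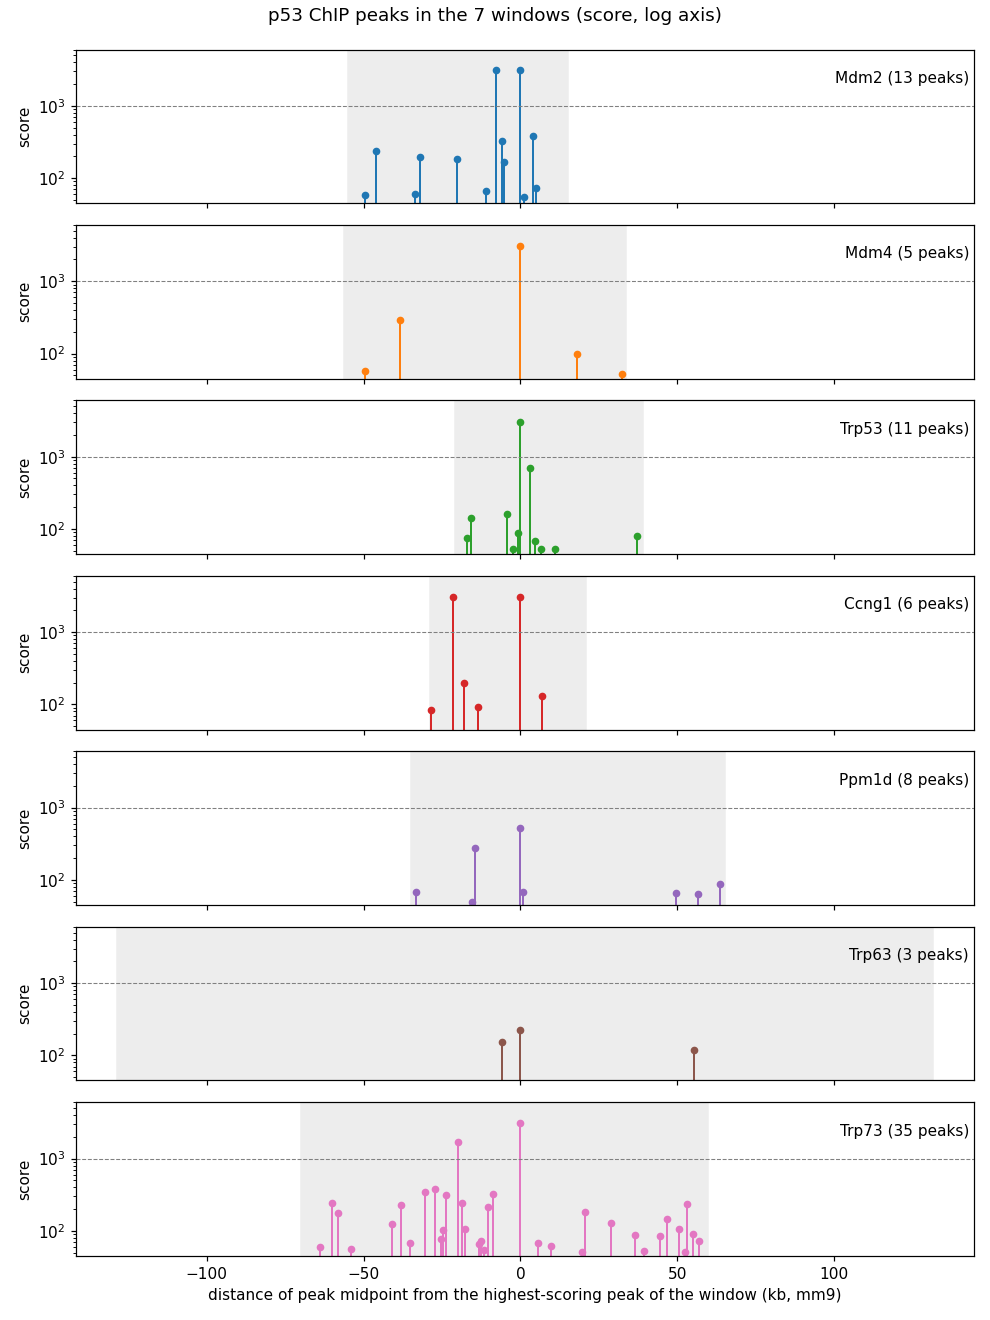
Score of every peak in the 7 windows (log axis) against the distance of its midpoint from the highest-scoring peak of its window, in kb. Grey marks the window and the dashed line a score of 1000, which 8 peaks exceed: Mdm2, Ccng1 and Trp73 have 2 each, Mdm4 and Trp53 have 1, and Ppm1d and Trp63 have none.

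Mdm2, the ubiquitin ligase of the loop, had 13 peaks in 70 kb and a pair at the score of 3100. The pair lay at chr10:117146672-117147436 (765 bases wide) and chr10:117154440-117155221 (782 bases), with midpoints 7.78 kb apart and 2 further peaks between them. In the whole list, 4.17% of the 1390 peaks at 3100 have another within 10 kb. Of 1811 other stretches of 70 kb on chromosome 10, 4.42% had a top score of 3100 or more. In 0.387% there were 2 or more peaks at exactly 3100, a count chosen after the pair had been seen. Pairs that include a peak above 3100 were not counted in the 4.17% or the 0.387%. The remaining 11 Mdm2 peaks scored 54.25 to 386.94. The highest peak within 5 kb of the first of the pair scored 327.27, and that within 5 kb of the second scored 386.94. Away from the pair, the scores toward the low-coordinate end of the window were 57.39, 240.42, 59.71, 197.54, 185.56 and 65.69. The pair thus stood far above every other peak of the window, and no Mdm2 peak had a score between 387 and 3100.

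Mdm4, which inhibits p53 without being an effective ubiquitin ligase itself, showed a different layout from Mdm2. A lone peak at the score of 3100 lay at chr1:134915491-134917279, 1789 bases wide, with no other peak within 5 kb and the nearest midpoint 17.9 kb away. The other 4 peaks of the 90 kb window scored 288.01, 97.92, 57.09 and 52.46. A peak of at least this score occurred in 4.93% of 2152 other stretches of 90 kb on chromosome 1.

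Ccng1, which codes for cyclin G1, also carried a pair at 3100. The peaks lay at chr11:40547091-40548043 (953 bases) and chr11:40567942-40569951 (2010 bases), with midpoints 21.4 kb apart and 2 peaks of 194.93 and 91.21 between them. In the whole list, 8.92% of the peaks at 3100 have another within 25 kb. Of 2373 other stretches of 50 kb on chromosome 11, 4.72% had a top score of 3100 or more. In 0.126% there were 2 or more peaks at exactly 3100, a count again chosen after the pair had been seen. Pairs that include a peak above 3100 were again not counted in the 8.92% or the 0.126%. The outer peaks of the window scored 84.24 and 129.59. Beyond the window on the high-coordinate side the list was empty for 459 kb, up to a peak of 316.87. The window is set by position alone, so a peak in it need not belong to Ccng1 itself.

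Ppm1d, the gene of the Wip1 phosphatase, had no peak of 1000 or more. Its highest peak, chr11:85124421-85125124, scored 520.97 and was 704 bases wide, and the next scored 272.1. The other 6 Ppm1d peaks lay between 50.06 and 87.01. A top score at least as high occurred in 39% of 1185 other stretches of 100 kb on chromosome 11, so a score like that of Ppm1d was common there. A higher peak, of 563.07, lay 5.68 kb outside the low-coordinate border of the window. The neighbours of Ppm1d in the GRCm38 gene order are Appbp2 and Bcas3.

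Trp53, the gene of p53 itself, had 11 peaks in 60 kb, of which a single one was high. It lay at chr11:69390422-69391163, scored 3011.21 and was 742 bases wide. A second peak at chr11:69393470-69394116 scored 700.88, and the other 9 scored 52.40 to 162.58. The highest had 5 other peaks within 5 kb, the second among them, whereas the part of the window beyond 69402073 held only 1 peak, of 79.78. The neighbours of Trp53 in the GRCm38 gene order are Wrap53 and Atp1b2, and how much of either lies in the mm9 window was not analysed here. In 5.61% of 1977 other stretches of 60 kb on chromosome 11 the top score was at least 3011.21.

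The paralogs of p53 had the most and the fewest peaks of the 7 loci, with 35 in 130 kb at Trp73 and 3 in 260 kb at Trp63. p73 takes part in the development of neurons and multiciliated cells. The highest Trp73 peak, chr4:153479001-153481150, scored 3100, was 2150 bases wide and had no other peak within 5 kb. The second, chr4:153459194-153460885, scored 1676.28 and was 1692 bases wide, with 4 peaks within 5 kb and 7 peaks between it and the first. Of the remaining 33, 17 scored between 100 and 384 and 16 scored under 100, with 51.14 as the lowest. At Trp63, the gene of p63, which directs the development of stratified epithelia, the peaks scored 150.7, 221.73 and 117.48. The highest was at chr16:25788254-25788868 and 615 bases wide, and the window held no peak midpoint in its first 122.8 kb or its last 76.2 kb. A top score at least as high as that of Trp63 occurred in 64.8% of other stretches of 260 kb on chromosome 16, and one at least as high as that of Trp73 in 7.42% of other stretches of 130 kb on chromosome 4.

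Peak density also differed between the loci. Per Mb, the windows held 269 peaks at Trp73 (exact 95% Poisson interval 188 to 374), 186 at Mdm2 (98.9 to 318), 183 at Trp53 (91.5 to 328) and 120 at Ccng1 (44.0 to 261). Ppm1d (80.0, 34.5 to 158) and Mdm4 (55.6, 18.04 to 130) followed, and Trp63 (11.5, 2.38 to 33.7) was lowest. The intervals of neighbours in this order overlap. That of Trp63 overlaps that of Mdm4 and lies below those of the other 5 loci.

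Against the rest of its own chromosome, the density was 6.49 times higher at Trp73 (exact conditional 95% interval 4.52 to 9.04), 5.05 times at Mdm2 (2.69 to 8.65) and 3.0 times at Trp53 (1.497 to 5.37). For Ccng1 (1.96, 0.720 to 4.27), Mdm4 (1.62, 0.524 to 3.77), Ppm1d (1.31, 0.565 to 2.58) and Trp63 (0.350, 0.0722 to 1.02) the interval of the ratio included 1, so a difference was not detectable with so few peaks. Among peaks of score 100 or more the ratio was 8.34 (5.02 to 13.1) at Trp73 and 7.04 (3.04 to 13.9) at Mdm2. At Trp53 it was 2.64 (0.718 to 6.76), so the interval included 1, as it did at the remaining loci. Over all 7 windows and all scores the ratio was 2.50 (1.98 to 3.10), and 1.70 (1.24 to 2.27) without Trp73, which holds 35 of the 81 peaks. All these intervals treat peaks as independent, but peaks cluster. Other stretches of 60 kb on chromosome 11 had a median of 2 peaks and a 95th percentile of 12. The intervals are therefore likely too narrow.

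The surroundings changed this order. Compared with the 1 Mb on each side of the window, Ccng1 had the highest ratio, with 120 peaks per Mb against 10.5 (ratio 11.4, 3.77 to 29.3). Its neighbourhood held only 21 peaks. Mdm2 (ratio 2.75, 1.43 to 4.87) and Trp73 (1.89, 1.29 to 2.69) remained above their surroundings, which held 67.5 and 142.5 peaks per Mb. For Trp53 the surroundings held 100.0 per Mb and the ratio of 1.83 (0.901 to 3.35) no longer excluded 1. Mdm4 had fewer peaks than its dense neighbourhood of 120 per Mb, with a ratio of 0.463 (0.149 to 1.095) that includes 1. Over all 7 windows the ratio to the surroundings was 1.61 (1.28 to 2.01).

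**Figure D2:**
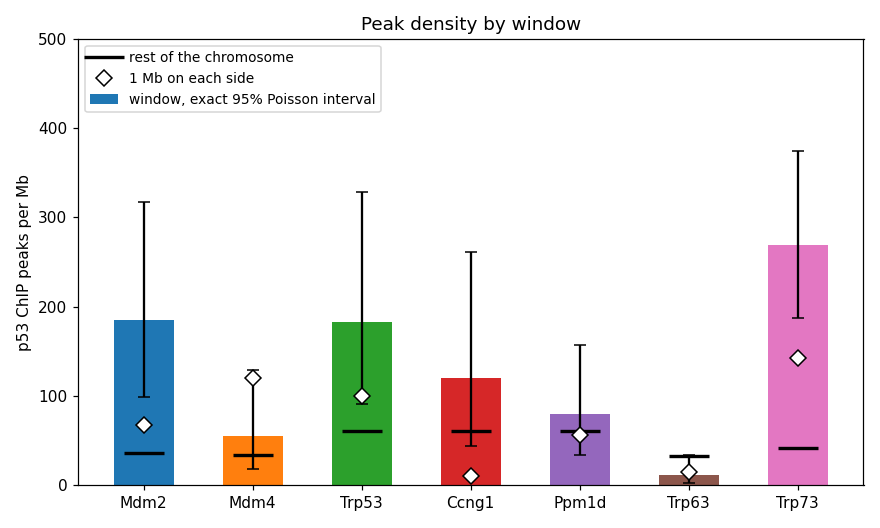
Peaks per Mb in each window (bars, with exact 95% Poisson intervals), in the rest of its chromosome (black dashes) and in the 1 Mb on each side (white diamonds). Trp73 is highest at 269 per Mb and Trp63 lowest at 11.5, and Ccng1 stands above a neighbourhood of 10.5 per Mb.

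Counts in other stretches of the same length on the same chromosome gave a further yardstick. For Trp73, 0.341% of 1172 stretches of 130 kb on chromosome 4 (4 stretches) held 35 peaks or more, and for Mdm2, 2.54% of 1811 stretches held 13 or more. The share was 6.88% for Trp53, 19.8% for Ccng1, 24.1% for Mdm4 and 31.6% for Ppm1d. For Trp63 it was 63.7%. Conversely, 42% of 364 stretches of 260 kb on chromosome 16 held 3 peaks or fewer, as Trp63 did, and 37.9% held a peak of 1000 or more, which Trp63 lacked. A number as low as that at Trp63 was therefore common on its chromosome.

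**Figure D3:**
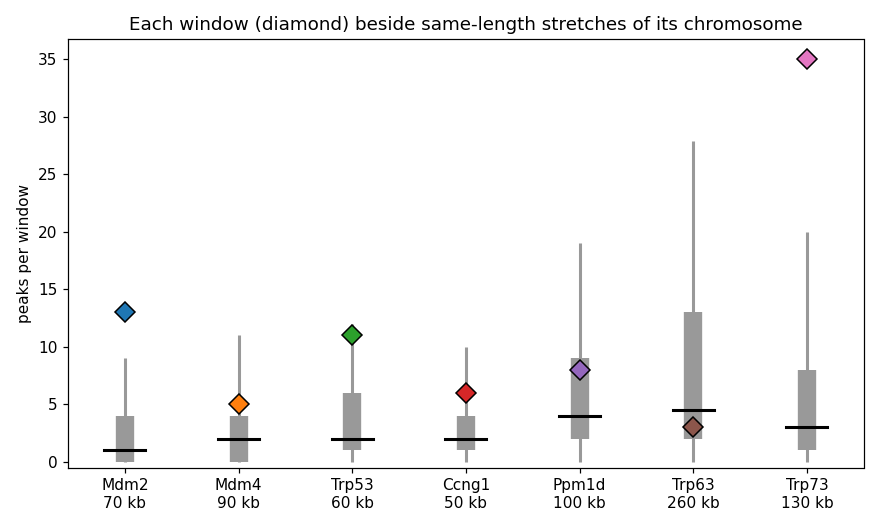
Number of peaks in each window (diamond) beside stretches of the same length on its chromosome (thin bar from the 5th to the 95th percentile, thick bar the quartiles, black line the median). Trp73 with 35 and Mdm2 with 13 peaks lie above the 95th percentile (20 and 9), whereas Trp63 with 3 lies below its median of 4.5.

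By median distance, peaks lay closest together at Trp53, Trp73 and Mdm2. The median between neighbouring midpoints was 1910 bases at Trp53, 2837 at Trp73 and 3033 at Mdm2. In the rest of their chromosomes it was 6752, 7403 and 9647. The 3 medians rest on 10, 34 and 12 distances and have no interval, so their order is not settled. Distances at Trp53 ranged from 680.5 to 26253 bases. Spacing was not compared with the 1 Mb on each side. The median was 6983 at Ccng1 and 7249 at Ppm1d, near the 6745 and 6743 of chromosome 11, and 16267 at Mdm4 against 10296. At Trp63 the 2 distances were 5770 and 55262 bases. Distances longer than a window cannot appear in it, which shortens these medians. The share of the window under a peak was 19.2% at Trp73 (2.37% in the rest of its chromosome), 11.8% at Mdm2 (2.07%) and 4.55% at Mdm4 (1.90%). On chromosome 11, where the rest of the chromosome had 3.56%, it was 10.7% at Ccng1, 10.09% at Trp53 and 4.0% at Ppm1d. At Trp63 it was 0.590%, against 1.84%.

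Widths separated the high peaks into narrow and broad ones. Among the 1390 peaks at 3100 the median width was 976 bases (quartiles 796 and 1264). Both Mdm2 peaks were narrower than the lower quartile, and the first Ccng1 peak, at 953 bases, was near the median. The Mdm4 peak, the second Ccng1 peak and the Trp73 peak were broad, at least as wide as 92.8%, 96.1% and 97.4% of the peaks at 3100. The second Trp73 peak, at 1692 bases, was at least as wide as 96.9% of peaks within 10% of its score. Peaks within 10% of the score of the Trp53 peak had width quartiles of 700 and 1088 bases, with those at exactly 3100 left out. The 742 bases of the Trp53 peak lay between them but below the lower quartile of the peaks at 3100. The broad peaks at Mdm4, at Ccng1 and at the top of Trp73 had no other peak within 5 kb, but the broad second Trp73 peak had 4. The first Ccng1 peak had 1, both Mdm2 peaks had 3 and the Trp53 peak had 5. How many peaks of the list lack a neighbour within 5 kb was not computed. Median spacing in the rest of chromosomes 1, 11 and 4 was itself above 5 kb (10296, 6745 and 7403 bases). The lack of neighbours is therefore not shown to go with width.

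**Figure D4:**
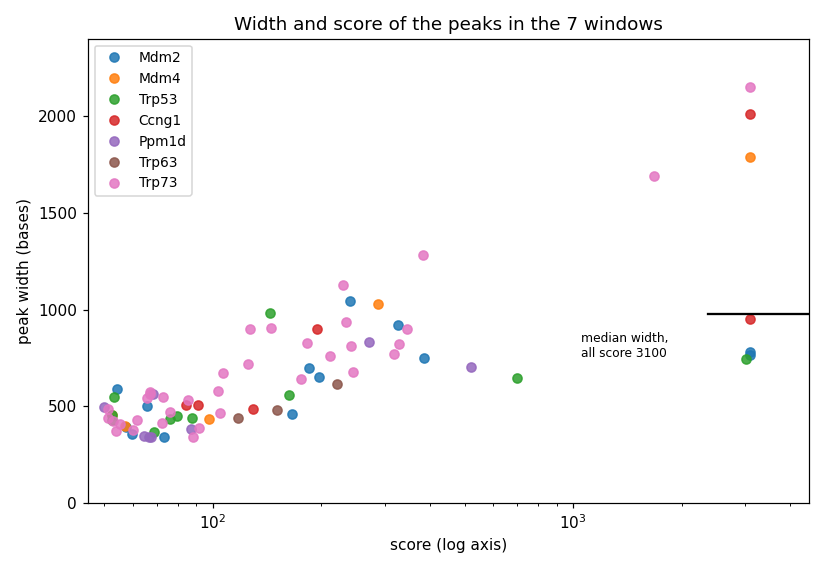
Width in bases against score (log axis) for the 81 peaks, coloured by locus, with the median width of all peaks at 3100 as a black line. At 3100, both Mdm2 peaks lie below the line and the Mdm4, Trp73 and one of the Ccng1 peaks lie far above it.

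Over all 81 peaks the median score was 105 (95% order-statistic interval 84.2 to 163) and the median width 560 bases (487 to 651). The rest of the 5 chromosomes had medians of 87.4 and 513 bases, which both intervals include. Width by class of score went both ways. For scores of 50 to below 100 the median was 434 bases, against 451 in the rest. It was 651 against 595 for 100 to below 200, 834 against 668 for 200 to below 500 and 867.5 against 777 from 500. The classes held 39, 17, 15 and 10 peaks of the windows, and their medians have no interval. By locus the median score was highest at Mdm2 (186), Ccng1 (162) and Trp63 (151) and lowest at Ppm1d (68.0) and Trp53 (79.8). These medians of single loci have no interval, and that of Trp63 rests on 3 peaks. At Trp53, 4 of the 11 peaks scored 100 or more, and at Trp63 all 3 did. In the whole list 43% of peaks scored 100 or more, so lower scores are the more common ones. Neither locus was tested against that share.

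The peaks just outside scored 58.87 to 563.07, with the highest at Ppm1d, and those just inside scored 52.46 to 150.7. When each window was widened by 20 kb on both sides, the number of peaks over all 7 rose to 103 and the number of 1000 or more stayed at 8. Values of single loci other than the rank of the top peak were not computed with other borders.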

How the data were processed

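p53 ChIP and input chromatin from Nutlin-treated mouse embryonic stem cells were sequenced, with 1 library each, assigned by title. Per the submitters' processing notes, CASAVA 1.8.2 and MACS 1.4.1 were used, with mm9 as the build. The aligner, the settings of the caller and the number of reads were not given in the sources used here. The peak score was deposited by the authors as the caller wrote it. Its minimum is 50, as on the scale MACS 1.4 uses for scores, the log10 p-value times −10. Deposited starts are counted from 0 and printed counted from 1.

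Peaks were assigned to a window by midpoint. Chromosome length is the distance from first to last peak. For density ratios, 95% intervals are exact and conditional on the sum of both Poisson counts. The pooled ratio divides the observed peaks by those expected from each window's own chromosome and has an exact Poisson interval. Medians have order-statistic intervals. Other stretches tile the chromosome from its first peak and leave out those touching the window. All intervals treat peaks as independent, and no p-value was computed. The functions were checked on simulated lists. The members, lists and tests were chosen with earlier results of these data known, and all 7 loci and every peak of 1000 or more are named. No mm9 sequence or annotation was used, so peaks were not assigned to promoters, introns or exons, and a planned list of other p53 regulators was not used. Alternatives were a score minimum of 100, any overlap, windows widened by 20 kb, merging of peaks up to 1 kb apart, a threshold of 500 for high scores and first rank for scores of 3100. Added after seeing the data were 1 Mb surroundings, leaving out the Trp73 or Trp63 window, and other settings for the promoter search. Python 3.11.15, NumPy 2.4.6, pandas 2.3.3, SciPy 1.17.1 and Matplotlib 3.10.9 were used.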

Additional observations from a re-analysis of the deposited data

How the results depend on the processing

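Of 46 alternative values, 33 stayed within the interval of the reported value or within 1.5 times the reported count. Membership by any overlap selected the same 81 peaks, so its values repeat the reported ones. First rank for scores of 3100 could not change Trp53, Ppm1d or Trp63, whose highest peaks scored below 3100. The tally therefore overstates how far the results were put to the test. A score minimum of 100 left 42 peaks in the windows, with medians of 237 for score, 777 bases for width and 5229 bases for spacing. The density ratio of 2.50 was 3.05 at this minimum. Merging peaks up to 1 kb apart raised the median spacing from 3527 to 5615.5 bases. The density ratio was 1.61 against the 1 Mb on each side, 1.70 without the Trp73 window, which left 46 peaks, and 3.26 without the Trp63 window. With scores of exactly 3100 ranked first, as they would be if the value is a placeholder for p-values below what could be stored, 0 peaks of the list ranked above the highest peaks of Mdm2, Mdm4, Ccng1 and Trp73, instead of 116. A full element was found in 2 of 8 promoters at a limit of 2 mismatches (Ccng1 and Trp73, but not Trp53), against 0.271% of all promoters. With a spacer of 0 to 13 bases it was found in 4 of 8, with Mdm4 added, and 12.96% of all promoters had one. No paired analysis was possible because there are no replicates, nor could a replicate be left out. Unknown read depth limits any statement on low scores.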
